A study of Homo sapiens with 11 samples.

Results

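The genes of PARP enzymes and ADP-ribose hydrolases were followed in MDA-MB-231 cells with and without the histone variant mH2A1.1. The group was chosen by name and holds 10 of the 23167 genes in the count tables. These are the poly(ADP-ribose) polymerases PARP1, PARP2, TNKS and TNKS2, their relatives PARP3, PARP9, PARP10 and PARP14, and the hydrolases PARG and MACROD1. All 10 were detected in every RNA-seq library and passed the filter on low counts, which kept 10963 genes. MDA-MB-231 is an established human triple-negative breast cancer (TNBC) cell line. The WT group was 2 RNA-seq libraries of cells given transfection reagent without siRNA, and the mH2A1.1 KD group was 2 libraries of cells given siRNA against mH2A1.1 at 11 nM, both collected on day 3. ChIP-seq of WT cells gave 1 list of peaks for mH2A1.1 and 1 for total mH2A1, and these have no replicate. The knockdown was transient, and WT cells received no control siRNA, so the siRNA itself and the loss of its target cannot be told apart.

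ADP-ribosylation is the transfer of ADP-ribose from NAD+ to proteins or nucleic acids. PARP enzymes write this mark as chains or as single units, PARG and macro domain hydrolases erase it, and macro domains read it. The macro domain of mH2A1.1 binds ADP-ribose, whereas that of the splice isoform mH2A1.2 does not. In breast cancer cells PARP1 and PARP2 are best known for DNA repair and as the targets of PARP inhibitors.

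None of the 10 genes passed the thresholds for a change in KD, which were more than 1.5-fold with an adjusted p below 0.1. The fold changes of KD over WT lay between 0.726 for PARP9 and 1.40 for PARP3. The median log2 fold change of the group was -0.14, beside 0.01 over all genes tested. Values were below 0 for 7 of the 10 genes, against 49.4% of all genes. Both KD libraries lay below both WT libraries for PARP2, PARP9, PARP14 and PARG, a pattern that 32.4% of all genes showed, and above them for PARP3, as for 32.5% of all genes. The test was the quasi-likelihood test of edgeR with Benjamini-Hochberg adjustment over all genes tested. It called 0% of the genes, 0 of 10963, although 23.2% had an unadjusted p under 0.05. No member was among the latter. DESeq2 called 11.3% of the 7765 genes for which it gave an adjusted p and none of the 9 members among them.

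The target and the libraries were checked first. MACROH2A1 (ENSG00000113648), which encodes both mH2A1 isoforms, stood at 385 and 394 CPM, counts scaled to library size, in WT and at 274 and 300.1 in KD. Both KD libraries were lower, in the direction of their label, with a log2 fold change of -0.44 (SE 0.17, edgeR adjusted p = 0.205). Counts per gene pool the isoforms, so this value does not measure mH2A1.1 alone. Library totals ran from 7856892 to 9794674 counts in WT and from 2309549 to 5584962 in KD, and the smallest was KD replicate 2. The paper also lists the lowest share of uniquely mapped RNA-seq reads for KD replicate 2. That library had 30 counts on chromosome 21 and none on 22 and X, and genes there were left out of the fit. No member lies on them. Among markers of the cell line, VIM, CD44, EGFR, AXL, CAV1 and KRT18 were tested, and their summed level was 7353 and 7539 CPM in WT and 8181 and 10904 in KD. Luminal ESR1 and PGR had 0 counts in every library, and the 4 luminal markers tested summed to 300.2 and 330 CPM in WT and 528 and 704 in KD. KRT19 alone held most of that sum, with 260 and 287 CPM in WT and 486 and 656 in KD, while CDH1 had a log2 fold change of -1.28 and GATA3 and EPCAM 0.16 and 0.13. Among immune markers, PTPRC is not listed in the tables used here, and CD3E and LYZ were under the filter. COL1A1, the tested fibroblast marker of 3, stood at 9.68 and 8.68 CPM in WT and 18.3 and 33.1 in KD, with DCN at 0 counts throughout. PECAM1 was the tested endothelial marker of 3 and stood at 3.05 and 3.42 CPM in WT and 5.48 and 4.25 in KD. DESeq2 called VIM, KRT18, KRT19 and COL1A1 higher in KD, and edgeR called none of the markers, but with length and GC offsets it called KRT19 and COL1A1 higher, at 0.59 and 0.96 (adjusted p = 0.0338 and 0.0429). The part of these markers in the results below was not tested. Nothing in the labels says that replicates came from separate cultures, so p-values measure the spread between these libraries, which may be technical.

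**Figure D1:**
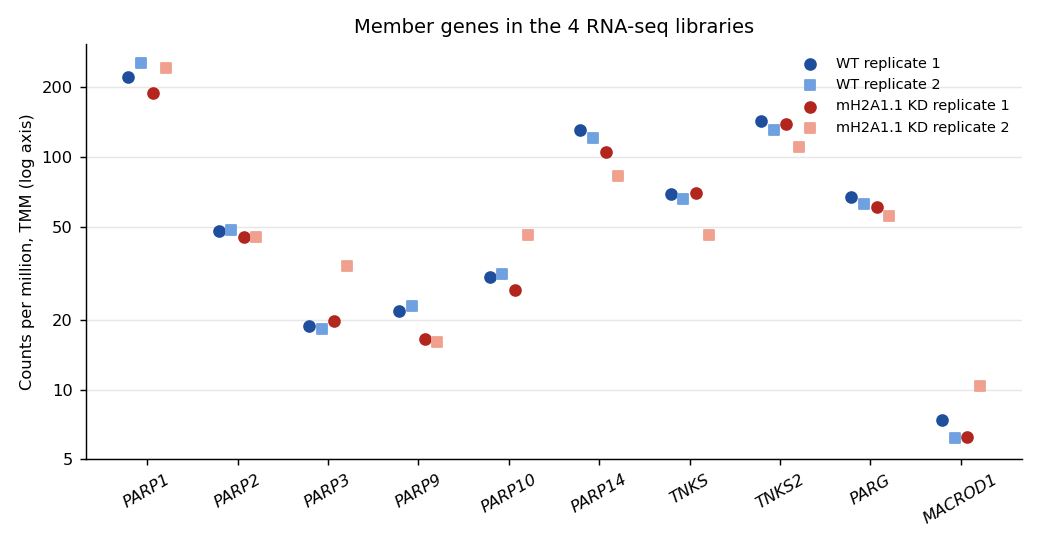
Level of each member gene in the 4 RNA-seq libraries, in TMM-scaled CPM on a log axis, with 1 point per library. KD replicate 2 stands apart from the other 3 libraries for PARP3, PARP10 and TNKS, while both KD libraries lie close together and below WT for PARP9.

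The levels of the members in WT cells were compared per length. By FPKM, reads scaled to the summed length of all annotated exons and to the reads on protein-coding genes, TNKS2 was highest, with 20.9 and 23.0 in the WT libraries. PARP1, PARG, PARP14 and PARP2 followed with means of 12.9, 12.5, 12.2 and 11.8, and each of these overlapped its neighbour in the order over the WT libraries. PARP3 (5.72), PARP10 (5.10), TNKS (4.86), MACROD1 (3.21) and PARP9 (2.49) were lower, and the WT libraries of neighbours in this part of the order did not overlap. The order depends on the length used. The annotated exons of PARP1 add up to 18399 bases, but its canonical transcript has 3978. With canonical transcript length, an alternative added after seeing the data, PARP1 led with 59.5 ± 5.70 FPKM (SD, n = 2), at the 90.5th percentile of genes tested. PARP2 was next with 26.3 FPKM and TNKS2 had 21.9, while MACROD1 was lowest with 5.35. Only PARP14 and PARG, and PARP9 and TNKS, overlapped with their next neighbour on this scale.

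PARP1 (ENSG00000143799, GRCh38 chr1:226360210-226408154, minus strand) is the main nuclear poly(ADP-ribose) polymerase and is activated by DNA breaks. It stood at 222 and 256 CPM in WT replicates 1 and 2 and at 190 and 242 CPM in KD replicates 1 and 2. KD replicate 1 was the lowest library, but KD replicate 2 lay between the WT libraries, so the groups overlapped. The log2 fold change was -0.15 (SE 0.20, 95% interval -0.62 to 0.33, edgeR adjusted p = 0.655), which leaves room for levels from 0.649 to 1.26 times those of WT. PARP1 had the most counts of the group, 2110 in WT replicate 1 and 513 in KD replicate 2, with a counting error of 4.42% in the latter. Without KD replicate 1 the log2 fold change was 0.01, and without KD replicate 2 it was -0.32, a fold change under 1.5. The 3 genes closest to PARP1 in log2 CPM over the 4 libraries were H2AZ1, FOXM1 and TACC3, at Euclidean distances of 0.15, 0.17 and 0.19. H2AZ1 encodes another histone variant, FOXM1 a transcription factor of the cell cycle and TACC3 a spindle protein.

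Neither list had a peak at the transcription start site (TSS) of PARP1. The nearest mH2A1.1 peak was a single bin of 3000 bp at chr1:226389001-226392000, which begins 16154 bp into the gene and covers exon 4 of the 23 exons of the canonical transcript. Total mH2A1 had a separate peak over exon 2 at chr1:226401001-226404000, and a further one upstream of the gene, between -10846 and -7847 bp from its 5′ end. The promoter is shown because PARP1 leads the group per canonical length, and neither list has a peak there. The stretch runs from 250 to 62 bases before the RefSeq start (GRCh38.p14, chr1:226408155-226408343, minus strand), and capitals mark a GC box, GGGCGG on either strand, 86 bases before the start.

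PARP1: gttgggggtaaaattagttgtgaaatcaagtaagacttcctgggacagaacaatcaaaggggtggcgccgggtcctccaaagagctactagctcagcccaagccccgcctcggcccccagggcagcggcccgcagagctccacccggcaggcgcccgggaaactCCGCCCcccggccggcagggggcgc

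A second GC box lies 47 bases before the start, in a stretch that longer transcripts include as an exon and that is not printed. GC boxes on either strand were in 42.6% of the 35116 promoters of the RefSeq table over the same 250 bases. The PARP1 stretch held no CCAAT and no TATAAA, which 32% and 10.7% of promoters held.

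PARP2 (ENSG00000129484, chr14:20343615-20357904, plus strand) shares DNA repair roles with PARP1. Its CPM were 48.3 and 48.5 in WT and 45.3 and 45.4 in KD. The KD libraries were nearly equal and both below WT, by a log2 fold change of -0.09 (SE 0.18, edgeR adjusted p = 0.755). The counts were small, 96 in KD replicate 2, where counting error alone was 10.2%. No peak of either list lay in the gene, and the nearest mH2A1.1 peak was 59386 bp from the TSS. RPPH1, the RNA component of RNase P, starts 208 bp away on the other strand and had 0 counts in each library.

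PARP3 (ENSG00000041880, chr3:51942345-51948867, plus strand) adds single ADP-ribose units and acts in the repair of double-strand breaks. Its CPM were 18.7 and 18.1 in WT, 19.8 in KD replicate 1 and 34.03 in KD replicate 2. Both KD libraries were above WT, but KD replicate 1 only by a log2 ratio of 0.11 to the WT mean and KD replicate 2 by 0.88. The fitted log2 fold change of 0.49 (SE 0.29, 95% interval -0.19 to 1.17, edgeR adjusted p = 0.309) was the highest of the group. It rested on KD replicate 2. Without KD replicate 1 the gene was called higher, with 0.87 and an adjusted p of 3.5e-04, a call that 20.4% of all genes received in that fit, and without KD replicate 2 the value was 0.11.

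PARP3 was also the member with the largest share of its body under mH2A1.1 peaks, 86.6%, when all peaks of that list counted. For its analyses the paper kept only peaks common to mH2A1.1 and total mH2A1. Under common peaks PARP3 had 0%, and MACROD1 had the largest share of the members, 74.7%. One peak of 18000 bp at chr3:51930001-51948000 ran from -12344 bp relative to the TSS to exon 10 of 11, and it held no total mH2A1 peak. The same peak covers all of RRP9, a gene of ribosomal RNA processing that starts 441 bp away on the other strand. RRP9 was counted 221 and 193 times in WT and 172 and 93 times in KD, with a log2 fold change of 0.63 (SE 0.23, edgeR adjusted p = 0.194).

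PARP9 (ENSG00000138496, chr3:122527924-122564577, minus strand) and PARP14 (ENSG00000173193, chr3:122680839-122730840, plus strand) are macro domain PARPs. Both genes are known to respond to interferon and lie near each other on chromosome 3. PARP9 stood at 21.9 and 23.0 CPM in WT and at 16.4 and 16.1 CPM in KD. The KD libraries were close together, with an SD of 0.261 CPM (n = 2), and lower than WT. A log2 fold change of -0.46 (SE 0.21, 95% interval -0.96 to 0.03, edgeR adjusted p = 0.230) made it the lowest of the group. It stayed between -0.43 and -0.50 when each library was left out in turn. PARP9 had 34 counts in KD replicate 2, a counting error of 17.2%.

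PARP14 stood at 132 and 121 CPM in WT, 106 in KD replicate 1 and 83.2 in KD replicate 2. Again both KD libraries were lower than WT, and KD replicate 2 was the lower of them. The log2 fold change was -0.41 (SE 0.19, 95% interval -0.87 to 0.05, edgeR adjusted p = 0.241). Without KD replicate 1 PARP14 was called lower, with -0.61 and an adjusted p of 1.0e-04, a call that 21.4% of all genes received in that fit, and without KD replicate 2 the value was -0.26. The ubiquitin ligase gene DTX3L, whose product partners PARP9, starts 239 bp from the PARP9 start and overlaps it on the other strand. DTX3L had 843, 688, 471 and 119 counts in the same order of libraries and a log2 fold change of -0.28 (SE 0.24, edgeR adjusted p = 0.469), with the groups overlapping.

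The promoters of PARP9 and PARP14 are shown because both genes are known to respond to interferon. A promoter of each held the core of an interferon-stimulated response element (ISRE), searched as GAAANNGAAA on both strands. Among all promoters 3.02% held this core, and none of the other promoters of members in the table did. PARP10 and TNKS have no promoter in that table and were not searched. RefSeq lists 2 starts for PARP9, and the element lies 41 bases before the one nearer to DTX3L. Since the region is exonic for longer transcripts and for DTX3L, only 30 bases are printed (chr3:122564322-122564351, minus strand). For PARP14 the element lies 29 bases before the start, and the 250 bases before it are printed (chr3:122680589-122680838, plus strand). Capitals mark the ISRE core in both and a GC box in PARP14.

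PARP9: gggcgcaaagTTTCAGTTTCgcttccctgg
PARP14: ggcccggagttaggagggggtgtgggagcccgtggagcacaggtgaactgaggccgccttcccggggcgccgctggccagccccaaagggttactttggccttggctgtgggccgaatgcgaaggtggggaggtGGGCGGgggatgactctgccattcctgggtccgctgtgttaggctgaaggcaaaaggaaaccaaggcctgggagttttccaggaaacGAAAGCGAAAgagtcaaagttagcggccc

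A match to a motif describes the letters and is no sign of binding. Neither promoter lay under a peak. PARP9 had a single mH2A1.1 bin at chr3:122553001-122556000, which begins 8577 bp from the 5′ end, covers exon 4 of 11 and coincides with a total mH2A1 peak. PARP14 had a single mH2A1.1 bin at chr3:122688001-122691000, within the intron after exon 3, and no total mH2A1 peak. These peaks covered 8.20% of the body of PARP9 and 6.01% of that of PARP14, near the median of 8.22% over all genes tested.

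PARP10 (ENSG00000178685, chr8:143977153-144012772, minus strand) adds single ADP-ribose units and is also known to respond to interferon. Its CPM were 30.5 and 31.6 in WT, 26.8 in KD replicate 1 and 46.3 in KD replicate 2. The KD libraries thus lay on opposite sides of WT, at log2 ratios of -0.21 and 0.58 to the WT mean, and the log2 fold change of 0.19 (SE 0.28, edgeR adjusted p = 0.673) lies between them. The annotated 5′ end of the gene lay inside an mH2A1.1 peak of 15000 bp and a total mH2A1 peak of 21000 bp. The canonical transcript starts 26312 bp further downstream. There the nearest mH2A1.1 peak lay 1541 bp upstream, while a total mH2A1 peak of 9000 bp held the start. That mH2A1.1 peak covers GRINA, a gene of the other strand inside the annotated span of PARP10, which had 798 and 657 counts in WT and 485 and 363 in KD (log2 fold change 0.61, SE 0.30, edgeR adjusted p = 0.247). SPATC1, which overlaps the 5′ end on the other strand, had 0 counts.

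Tankyrases add ADP-ribose chains to proteins of telomeres, the spindle and Wnt signalling. TNKS (ENSG00000173273, chr8:9555912-9782346, plus strand) stood at 69.9 and 66.4 CPM in WT, 69.9 in KD replicate 1 and 46.3 in KD replicate 2. KD replicate 1 was at the level of WT and KD replicate 2 was below all others. The log2 fold change was -0.21 (SE 0.23, edgeR adjusted p = 0.578), and it was 0.04 without KD replicate 2 and -0.57 without KD replicate 1.

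TNKS2 (ENSG00000107854, chr10:91798426-91865475, plus strand) stood at 144 and 132 CPM in WT and at 139 and 111 CPM in KD. KD replicate 1 lay between the WT libraries and KD replicate 2 below them. Its log2 fold change was -0.14 (SE 0.19, edgeR adjusted p = 0.660). Neither tankyrase gene had a peak of either list in its body, and the nearest mH2A1.1 peaks were 123912 bp from the TSS of TNKS and 55426 bp from that of TNKS2. The divergent transcript TNKS2-DT starts 117 bp from TNKS2 and had 8, 3, 0 and 0 counts. MIR597, inside TNKS on the same strand, had at most 4 counts.

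PARG (ENSG00000227345, chr10:49818279-49970203, minus strand) encodes the main hydrolase of poly(ADP-ribose) chains. Its CPM were 67.3 and 62.7 in WT and 60.8 and 55.8 in KD. Both KD libraries were lower than WT, and KD replicate 1 was closer to the lower WT library than to KD replicate 2. For PARG the log2 fold change was -0.15 (SE 0.18, edgeR adjusted p = 0.599). PARG has near-identical pseudogene copies on the same chromosome, and reads that matched several places had been filtered out upstream, so its level is uncertain. TIMM23B, which itself has a near-identical relative and overlaps the 5′ end of PARG on the other strand, had 165 and 141 counts in WT and 89 and 38 in KD (log2 fold change -0.05, SE 0.21, edgeR adjusted p = 0.886). The peak of PARG was a single mH2A1.1 bin over exon 9 of 18, far from either the annotated 5′ end or the start of the canonical transcript, which lies 28176 bp downstream of that end.

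MACROD1 (ENSG00000133315, chr11:63998558-64166113, minus strand) encodes a macro domain hydrolase that removes single ADP-ribose units and is known from mitochondria. It was the least counted member, with 70, 47, 33 and 22 counts, and its CPM were 7.36 and 6.18 in WT and 6.23 and 10.4 in KD. KD replicate 1 lay within the WT range and KD replicate 2 above it. The log2 fold change was 0.19 (SE 0.33, 95% interval -0.58 to 0.96, edgeR adjusted p = 0.724), and counting error alone was 21.3% in KD replicate 2.

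MACROD1 carried the longest mH2A1.1 domains of the group. A peak of 75000 bp at chr11:64116001-64191000 held the TSS and exons 1 to 3, and another of 57000 bp lay in the intron after exon 3. mH2A1.1 peaks covered 74.7% of the gene body and total mH2A1 peaks 73.7%, although the nearest total mH2A1 peak began 2113 bp after the TSS. FLRT1, within MACROD1 on the other strand, had 0 counts in each library. OTUB1, which overlaps the 3′ end, had 559 and 486 counts in WT and 363 and 233 in KD (log2 fold change 0.52, SE 0.25, edgeR adjusted p = 0.246).

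**Figure D2:**
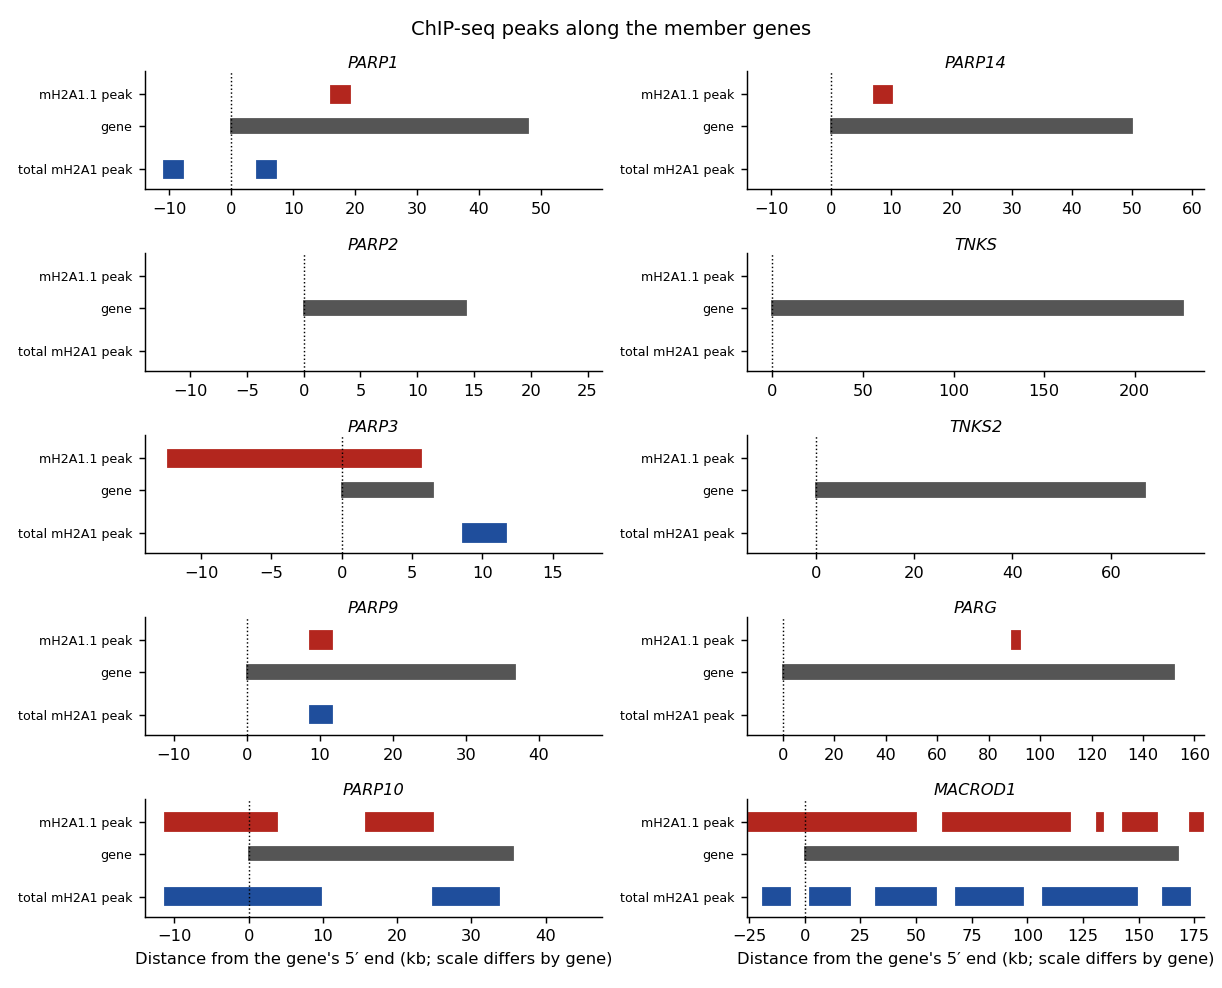
Peaks of mH2A1.1 (red) and total mH2A1 (blue) along each member gene (grey bar), in kb from the annotated 5′ end of the gene, with a scale per gene. Peaks cover the 5′ end of PARP3, PARP10 and MACROD1, lie as single bins inside PARP1, PARP9, PARP14 and PARG, and are absent from PARP2, TNKS and TNKS2.

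Together, 3 of the 10 genes (PARP3, PARP10 and MACROD1) had an mH2A1.1 peak within 500 bp of the annotated 5′ end, beside 46.9% of the 10943 genes tested that could be placed. The same 3 genes had one among peaks wider than a single bin, beside 33.2%, and at the start of any annotated transcript, beside 57.7%. The peaks at PARP10 and MACROD1 were shared with total mH2A1, and 26.2% of all genes had such a common peak. At the start of the canonical transcript, PARP3 and MACROD1 had an mH2A1.1 peak, beside 47.4% of genes. Total mH2A1 peaks lay at the 5′ end of PARP10 alone, beside 18.4% of genes, and at the canonical start they again marked only PARP10, beside 17%. The members' median share of the gene body under mH2A1.1 peaks was 6.13%, with 3 genes at 0, beside a median of 8.22% over all genes and 27.9% of them at 0. With common peaks alone or with total mH2A1 peaks the median was 0 for members and for all genes. These are presences in 1 library per antibody, without replicate error or test.

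The members with a peak at the 5′ end were those with GC-rich exons, and the log2 fold changes followed GC content as well. Exon GC content was 58.4% in PARP3, 64.7% in PARP10 and 64.9% in MACROD1, 48.0% in PARP1, and between 41.5% and 43.3% in the other 6. The 3 GC-rich genes were also the only members with a log2 fold change above 0. Over all genes the median log2 fold change went from -0.44 through -0.14 and 0.19 to 0.44 over 4 equal bins of rising GC content. Spearman's rho between GC content and log2 fold change was 0.671 over 10943 genes and 0.697 over the 10 members. The points share the same 4 libraries, and the values are a description without p. Over all genes rho was 0.743 for KD replicate 2 against the WT mean and 0.429 for KD replicate 1, and over the members 0.879 and -0.139. After the offsets described next, rho was 0.000877 over all genes and -0.636 over the members, so the members then ran against GC content.

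**Figure D3:**
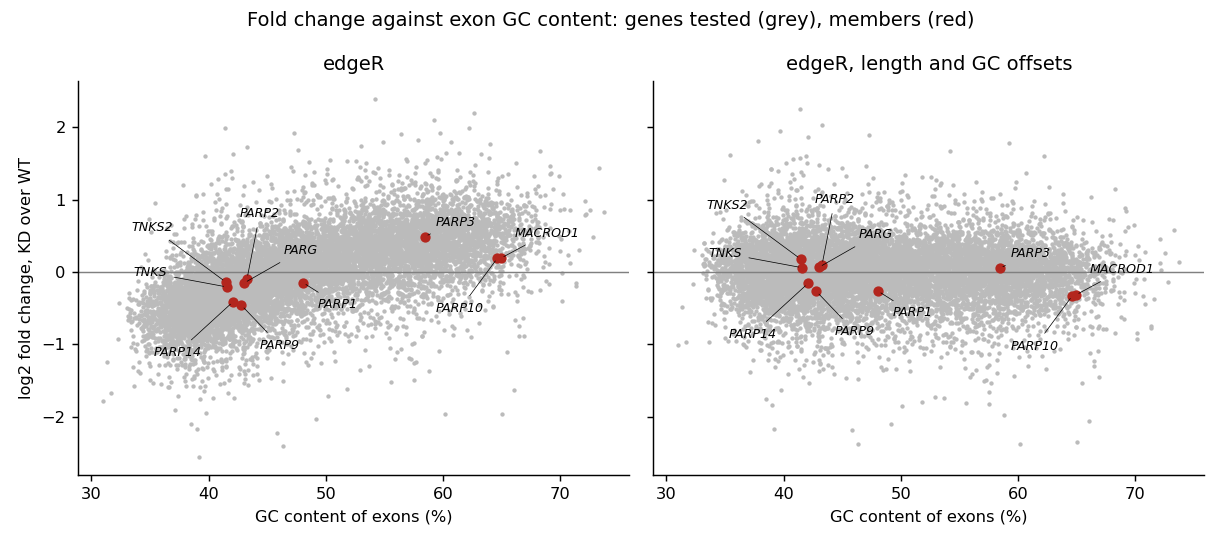
log2 fold change of KD over WT against exon GC content in percent, for genes tested (grey) and members (red), without (left) and with (right) offsets for exon length and GC content. PARP3, PARP10 and MACROD1 lie above 0 on the left, and with offsets PARP3 is at 0.05 and the other 2 are below 0.

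When the smooth trends of each library over exon length and GC content were removed with offsets in edgeR, 6 members had the opposite sign. PARP2, TNKS, TNKS2 and PARG stood at 0.10, 0.06, 0.18 and 0.07, and PARP10 and MACROD1 at -0.33 and -0.32. PARP3 stood at 0.05 in place of 0.49. PARP1 (-0.26, SE 0.13), PARP9 (-0.27, SE 0.17) and PARP14 (-0.16, SE 0.09) stayed below 0, with adjusted p of 0.242, 0.335 and 0.318. That fit called 5.34% of all genes and no member. Log2 fold changes were then below 0 for 5 of 10 members, against 49% of all genes. With GC content and length of the canonical transcript in the offsets, added after seeing the data, PARP1, PARP9 and PARP14 stood at -0.24, -0.26 and -0.20, PARP10 at -0.33, and PARP2 at -0.03. MACROH2A1 itself was called lower in that fit, at -0.64 with an adjusted p of 0.0186, as 574 of 10963 genes were called in either direction. No other fit called it. With the planned offsets in edgeR MACROH2A1 stood at -0.40 (adjusted p = 0.0900), a fold change under 1.5. PARP9 and PARP14 were below 0 in each fit made, and PARP3 above 0, though at 0.05 (SE 0.16) with the planned offsets in edgeR. The fits draw on the same libraries, so a shared sign is no separate evidence.

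**Figure D4:**
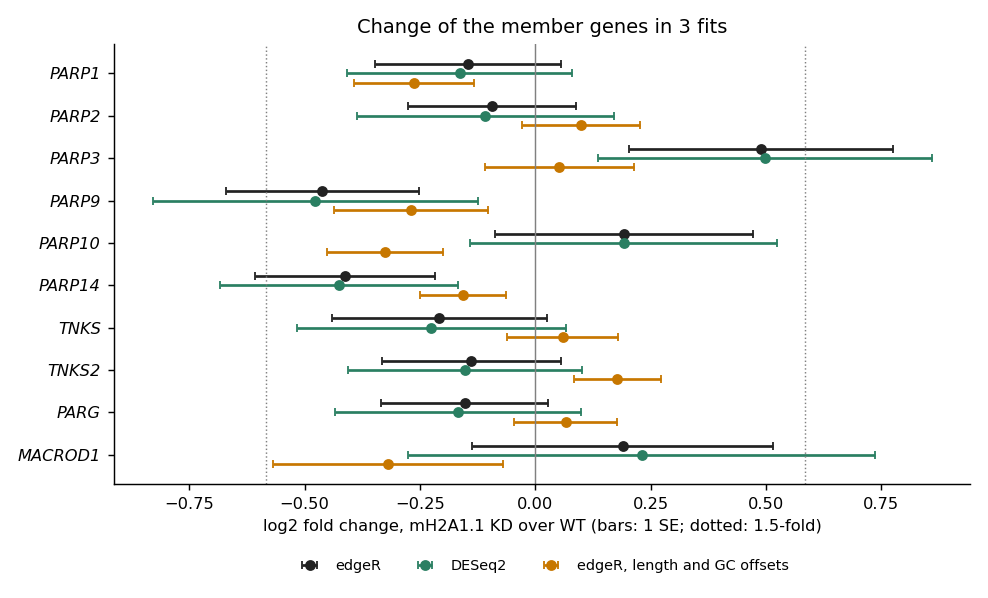
log2 fold change of KD over WT for each member by edgeR (black), DESeq2 (green) and edgeR with length and GC offsets (orange), with bars of 1 SE and dotted lines at 1.5-fold. PARP9 and PARP14 are below 0 in the 3 fits, from -0.48 to -0.16, while PARP10 and MACROD1 change side with the offsets.

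Other genes of the pathway were read from lists of names. Of 9 further PARP family genes, 8 were tested and none was called by edgeR or DESeq2. Their median log2 fold change was -0.11, from -0.75 for PARP16, a PARP of the endoplasmic reticulum (SE 0.39, edgeR adjusted p = 0.268), to 0.57 for PARP12, an interferon-responsive PARP (SE 0.18, adjusted p = 0.194). PARP12 kept 0.54 with length and GC offsets, where its adjusted p was 0.0408 at a fold change under 1.5. Of 9 further hydrolases and processing enzymes, 7 were tested and none was called by edgeR or DESeq2, with a median of 0.20. They ran from -0.63 for ENPP1, an ectoenzyme that cleaves nucleotides (SE 0.25, adjusted p = 0.205), to 0.77 for ADPRHL1, a heart relative of the ADP-ribosylhydrolases (SE 0.27, adjusted p = 0.194). Of 12 cofactors and readers 10 were tested and none was called by edgeR or DESeq2, with a median of -0.17. The lowest was HPF1, the cofactor that directs PARP1 and PARP2 to serine, at -0.77 (SE 0.27, adjusted p = 0.194), and the highest CHFR, a ubiquitin ligase that binds poly(ADP-ribose), at 0.66 (SE 0.22, adjusted p = 0.194). With length and GC offsets HPF1 stood at -0.41 and CHFR at 0.28.

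Of 13 tankyrase substrates and partners 11 were tested, 6 with both KD libraries above WT and 2 with both below, beside 32.5% and 32.4% of all genes. The median was 0.34, and -6.1e-04 with length and GC offsets. The test of edgeR called none of them. DESeq2 called 1 of the 10 with an adjusted p, lower in KD, beside 11.3% of all genes in either direction. Of 12 genes of NAD salvage and synthesis, which supply the substrate, 6 were tested. NAMPT, the rate-limiting enzyme of NAD salvage, had 7589 and 5496 counts in WT and 2738 and 723 in KD. DESeq2 called it lower at -0.83 (SE 0.26, adjusted p = 0.0370), edgeR did not (-0.82, SE 0.24, adjusted p = 0.194), and with length and GC offsets it stood at -0.33, or at -0.07 with those of the canonical transcript. The other 5 genes had log2 fold changes above 0. Of these, edgeR with offsets called NMRK1, a nicotinamide riboside kinase, higher at 1.13 (adjusted p = 0.0752), on 26, 24, 31 and 9 counts.

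Interferon-stimulated genes were listed because PARP9, PARP10 and PARP14 are among the genes that interferon induces. Of 41 such genes 30 were tested, and 5 (IFI27, IRF7, PSMB8, PSMB9 and TAP1) are not listed in the tables used here. The median log2 fold change was -0.21, with 20 of 30 below 0, beside 49.4% of all genes. Both KD libraries were below WT for 16 genes and above it for 3, beside 32.4% and 32.5% of all genes. DESeq2 called 2 of the 21 with an adjusted p, both lower, beside 11.3% of all genes in either direction, and edgeR called none. XAF1, a pro-apoptotic factor, stood at -1.01 by DESeq2 (SE 0.37, adjusted p = 0.0740) and at -1.001 by edgeR (SE 0.23, adjusted p = 0.194). IFIT2, an RNA-binding antiviral protein, stood at -0.83 by DESeq2 (SE 0.27, adjusted p = 0.0462) and at -0.81 by edgeR (SE 0.20, adjusted p = 0.194). With length and GC offsets the median was -0.11, beside 0.01 over all genes, and 18 of 30 were below 0, beside 49% of all genes. In that fit edgeR called 2 of the 30, XAF1 (-0.995, adjusted p = 0.0344) and OASL (-0.66, adjusted p = 0.0976), both lower. It called 5.34% of all genes in either direction. The naming rule did not cover OASL and NMRK1, which were picked with their values in view.

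**Figure D5:**
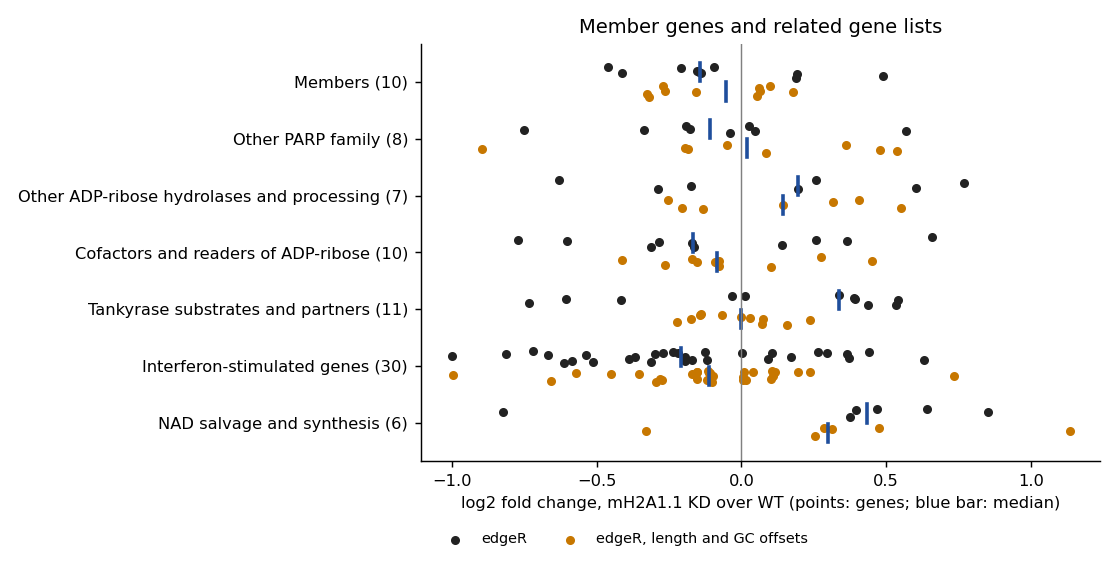
log2 fold change of KD over WT for the tested genes of each list, by edgeR (black) and by edgeR with length and GC offsets (orange), with medians as blue bars and the number tested in parentheses. The members lie between -0.46 and 0.49, and the median of the tankyrase partners goes from 0.34 to about 0 with offsets.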

How the data were processed

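The RNA-seq data are 2 libraries of WT cells and 2 of mH2A1.1 KD cells, made with a stranded total RNA kit. The authors aligned reads to GRCh38 with STAR 2.5.1, filtered on mapping quality, removed duplicates and counted them with htseq-count at default settings, and the deposited values are raw counts per gene. The annotation release behind the counts is not given in the sources used here. The default counts reads by strand. Its match to the kit's orientation was not tested, so counts where genes overlap on opposite strands are uncertain. Without molecular identifiers, removal of duplicates lowers the counts of densely covered genes. The deposited peak lists, made by the authors with normR against input, 1 library per antibody, hold positions in multiples of 3000 bp (30687 peaks for mH2A1.1 and 24222 for mH2A1) and a score that is 0 throughout. The ChIP-seq input and the promoter capture Hi-C samples were not analysed here.

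Of 23167 identifiers, 23061 were matched to GENCODE release 44. The main test was the quasi-likelihood test of edgeR 4.0.16 (R 4.3.3) after TMM scaling and filterByExpr, without 1722 genes of chromosomes 21, 22 and X, which KD replicate 2 lacked. SE was derived from the F statistic, and intervals are 95%. DESeq2 1.42.0 was an alternative. CPM were scaled to TMM-adjusted library totals. FPKM used exon union length. Offsets were lowess trends (span 0.3) of log2 CPM over exon GC content and length. Peaks were assigned within 500 bp of the gene's 5′ end, gene bodies began 50 bp after it, and common peaks shared at least 1 bp. Sequences are from the RefSeq promoter table (GRCh38.p14), which held 8 of the 10 members, all but PARP10 and TNKS. Members and lists were chosen with earlier results of these data known. Text names all members, MACROH2A1, genes overlapping a member or starting within 1000 bp of one, the 3 genes nearest PARP1 and, in each list, the called genes or else the highest and lowest. Some named genes of the lists are not reported here.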

Additional observations from a re-analysis of the deposited data

How the results depend on the processing

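The count of called genes depended on the setting, while no member was called except without KD replicate 1. The authors used DESeq2 with the same thresholds and reported 945 genes. From 0 genes by edgeR, the count was 874 with DESeq2, 945 with DESeq2 on the whole table, 2139 without the filter on low counts, 585 with length and GC offsets, 490 with the same offsets in DESeq2 and 574 with offsets of the canonical transcript. It remained 0 with the whole table in edgeR, RLE or upper quartile factors, at least 10 counts in each library, thinning to the smallest library, or adjusted p under 0.05 with no fold limit. The whole table keeps chromosomes 21, 22 and X, which KD replicate 2 lacked, so missing reads enter its count with DESeq2. That count was 535 genes lower and 410 higher, against 445 and 429 with DESeq2 without those chromosomes. Leaving out each library in turn gave 2 to 4744 called genes and 0 to 2 called members (PARP3 and PARP14 without KD replicate 1), and the lone library of a group was then assumed to vary like the others. Replicate numbers are shared between WT and KD, but nothing says that a number marks a shared batch. Deviations of same-numbered libraries from their group means correlated at 0.252. With the replicate block edgeR called 2208 genes and no member, and 813 with block and offsets together. Among the other named genes, the block and the fit without the filter each called ENPP1, HPF1, IFIT2, XAF1 and NAMPT lower and ADPRHL1 and CHFR higher. The block also called RRP9 higher, block with offsets called PARP16 lower, and DESeq2 on the whole table called CHFR higher.

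Of 170 log2 fold changes of members under 17 alternatives, 28 had the opposite sign to the reported one. PARP3, PARP9 and PARP14 had none of these. With offsets in edgeR the values were 0.10 for PARP2, -0.33 for PARP10, 0.059 for TNKS, 0.18 for TNKS2, 0.066 for PARG and -0.32 for MACROD1. In the same order, they were 0.14, -0.24, 0.054, 0.18, 0.091 and -0.18 with offsets in DESeq2, and 0.11, -0.32, 0.044, 0.18, 0.069 and -0.33 with offsets and replicate block. With offsets of the canonical transcript PARP10, TNKS, TNKS2, PARG and MACROD1 stood at -0.33, 0.0071, 0.19, 0.034 and -0.37, and TIMM23B at 0.10. Leaving out each library in turn gave ranges of -0.32 to 0.015 for PARP1, -0.20 to 0.57 for PARP10, -0.57 to 0.039 for TNKS, -0.33 to 0.014 for TNKS2 and -0.13 to 0.60 for MACROD1. PARP1 changed sign without KD replicate 1 and the other 4 without KD replicate 2. The cause was not tested.

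Peaks at the 5′ end of members numbered 1 with total mH2A1 in place of 3, and the median share of the gene body was 0 with common or total mH2A1 peaks. The median FPKM of members was 8.77 with exon union length, 11.9 with canonical length and 1.45 with the whole span of the gene. The whole table in DESeq2, offsets with block, canonical offsets, canonical TSS and canonical length were added after seeing the data. In KD replicate 2, with 2309549 counts, counting error was largest for MACROD1, PARP9 and PARP3, at 21.3%, 17.2% and 11.8%.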
